A study of Homo sapiens with 18 samples.

Results

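The transcripts described here are those of 10 ligands through which B cells stimulate or restrain T cells and other lymphocytes: CD80, CD86, ICOSLG, CD274 (PD-L1), PDCD1LG2 (PD-L2), CD83, SLAMF1, SLAMF7, CD48 and CD58. They were chosen by gene symbol, 10 of the 56609 rows of the deposited count table, and all 10 were above the low-count filter, which kept 31872 genes for testing. RNA came from 3 cell lines established from chronic lymphocytic leukemia (CLL), HG3, MEC2 and PCL12, which the study lists as EBV-positive, with mutated IGHV genes in MEC2 and unmutated IGHV genes in HG3 and PCL12. Each line was sequenced as 3 samples stimulated for 4 h with CpG-ODN2006 at 2.5 µg/ml, a synthetic oligonucleotide that activates the endosomal DNA receptor TLR9, and 3 unstimulated samples, 18 libraries in all. Each line stands for 1 patient, and nothing in the labels says how the replicates of a line were separated, so p-values measure the spread between these samples, which may be technical.

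T cells need a second signal beside the antigen receptor, and the B7 family gives it or withholds it. CD80 and CD86 bind CD28, which activates the T cell, and CTLA4, which inhibits it; ICOSLG binds ICOS, which sustains helper T cells in the germinal center; CD274 and PDCD1LG2 bind the inhibitory receptor PD-1 (PDCD1). CD83 is an early activation marker of B cells and dendritic cells that stabilizes surface CD86 and MHC class II, SLAMF1 and SLAMF7 are self-binding receptors of the SLAM family, and CD48 and CD58 are adhesion ligands of CD244 and CD2. In CLL these molecules mediate the contact with T cells in lymph nodes, and activation through TLR9 or CD40 is the classical way to raise several of them on B cells.

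The libraries held 20382943 to 67308932 counts, and the members were covered by 34 to 30799 counts in each. The B cell markers MS4A1 (589 to 1842 CPM), CD79A (215 to 996 CPM) and PAX5 (68.7 to 643 CPM) were found in every library (CPM are counts scaled to 1000000 per library, with TMM factors). Summed markers of NK cells reached 10.8 CPM, of monocytes 3.86 CPM and of dendritic cells 9.40 CPM at most, and those of T cells (35.8 to 140 CPM) came almost wholly from TRAC, with CD3E no higher than 2.37 CPM in an unstimulated library. Of these markers PAX5 and GNLY were higher in unstimulated MEC2 and PCL12 than in HG3, FCER1A likewise at under 1 CPM, and CD1C in MEC2 alone (7.68 against 1.08 CPM); their part in the differences below was not tested. The libraries of 2 samples were rich in mitochondrial transcripts, HG3 replicate 2 without CpG (20.2% of its counts) and MEC2 replicate 2 with CpG (19.7%), where the range elsewhere was 2.82% to 9.28%. Transcripts high in MEC2 were found in PCL12 replicates 2 and 3: 45 genes with high levels in MEC2 had median levels there of 29.0% to 31.3% of MEC2, stimulated or not, and of 2.26% to 2.36% in PCL12 replicate 1, which was used to select them. The source of these transcripts was not tested. None of the members met the selection of those 45 genes, which required low levels in PCL12 replicate 1 beside high levels in MEC2. Whether values of members in PCL12 replicates 2 and 3 were affected was therefore not tested by it. Results of members that passed with these replicates are also given without them. In fits with PCL12 replicate 1 alone, that library had no replicate and was assumed to vary like the other groups, whose spread sets the p-value.

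On GRCh38 (GENCODE release 44) several members lie side by side. CD274 (chr9:5450503-5470566, plus strand) and PDCD1LG2 (chr9:5510531-5571282, plus strand) are 39.96 kb apart. SLAMF1 (chr1:160608106-160647044, minus strand), CD48 (chr1:160678746-160711831, minus strand) and SLAMF7 (chr1:160739057-160754821, plus strand) follow each other with gaps of 31.7 and 27.2 kb. CD58 (chr1:116514534-116571039, minus strand) lies far from them on the same chromosome. CD80 (chr3:119524293-119559614, minus strand) and CD86 (chr3:122055362-122121139, plus strand) share a chromosome, while CD83 (chr6:14117256-14136918, plus strand) and ICOSLG (chr21:44215382-44241446, minus strand) are each on one of their own. CD80 overlaps TIMMDC1 on the opposite strand. The labels and the methods both describe stranded libraries (reverse in the methods, which name no library kit). However, the strand setting of the counting is not given in the sources used here. Whether reads of CD80 and TIMMDC1 were kept apart is therefore not known. CD274, PDCD1LG2 and CD48 each overlap a long noncoding RNA in the same way. ICOSLG has a near-identical copy on the assembly (chr21:5022531-5036771), which GENCODE lists as an artifact: from 19.7% to 89.1% of the 100-base windows of its 10 protein-coding transcripts occur in that copy, so the ICOSLG counts are uncertain.

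CD80, CD274 and CD83 were the members that were higher with CpG in every replicate pair of every line, so their promoters are shown (RefSeq, GRCh38.p14, 250 bases before and 50 after the annotated start, 5′ to 3′ on the strand of the gene). They lie at chr3:119559565-119559864 (minus strand), chr9:5450292-5450591 (plus strand) and chr6:14117006-14117305 (plus strand). Capitals mark a match to the gamma-activated sequence TTCNNNGAA, the motif of STAT factors.
CD80: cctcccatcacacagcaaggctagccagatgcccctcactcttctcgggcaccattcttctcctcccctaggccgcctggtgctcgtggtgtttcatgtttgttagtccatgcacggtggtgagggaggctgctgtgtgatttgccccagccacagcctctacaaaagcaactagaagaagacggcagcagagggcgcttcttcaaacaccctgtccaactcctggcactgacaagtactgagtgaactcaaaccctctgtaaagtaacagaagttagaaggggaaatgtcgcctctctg
CD274: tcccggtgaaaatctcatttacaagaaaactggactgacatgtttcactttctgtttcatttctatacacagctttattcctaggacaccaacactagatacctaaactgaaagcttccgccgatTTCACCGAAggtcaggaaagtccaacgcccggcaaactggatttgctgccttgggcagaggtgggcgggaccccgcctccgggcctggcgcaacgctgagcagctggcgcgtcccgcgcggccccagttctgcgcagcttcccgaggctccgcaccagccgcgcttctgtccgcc
CD83: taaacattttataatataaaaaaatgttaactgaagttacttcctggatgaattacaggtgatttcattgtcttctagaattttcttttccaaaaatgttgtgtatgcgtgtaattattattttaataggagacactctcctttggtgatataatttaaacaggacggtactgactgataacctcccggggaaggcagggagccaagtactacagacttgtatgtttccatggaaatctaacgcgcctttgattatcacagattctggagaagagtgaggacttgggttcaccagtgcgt
RefSeq promoters were at hand for 8 of the 10 members, PDCD1LG2 and SLAMF7 not among them. The gamma-activated sequence occurred in 1 of the 8, in CD274 at bases -125 to -117 from the start (capitals above), against 7.66% of all 35116 promoters. The NF-κB consensus was in 0 of the 8 (11.3% of all promoters), and the AP-1 motif TGACTCA or TGAGTCA in 0 of the 8 (4.95% of all promoters), with both strands searched; these are matches of letters within 300 bases and nothing was measured on binding.

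Several members were higher in unstimulated HG3 than in the other lines. Against MEC2, 6 of the 10 members were higher in HG3 at an adjusted p under 0.05 in edgeR's quasi-likelihood test and 0 were lower. Of all tested genes 9.78% passed, 4.97% as higher and 4.81% as lower in HG3. The CD83 call was lost with any 1 unstimulated library of HG3 or MEC2 left out. Those of CD58 and ICOSLG were lost without some of these libraries. Against PCL12, 5 were higher in HG3 and 0 lower (9.44% of all tested genes passed, 4.57% as higher and 4.87% as lower in HG3), and 3 without HG3 replicate 2 or 3 or without PCL12 replicate 1 or 3. ICOSLG was not lower in PCL12 than in HG3 (Log2FC 0.10). CD80 overlapped between PCL12 and HG3, and SLAMF7 overlapped in both comparisons. The median Log2FC of the members was -1.33 for MEC2 against HG3 and -1.07 for PCL12 against HG3, beside 0 over all tested genes in both. The exact two-sided permutation test of 3 against 3 libraries cannot go below 0.1, the value it gave for each pair of groups that did not overlap. In bulk RNA, fewer expressing cells and less RNA per cell cannot be told apart.

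**Figure D1:**
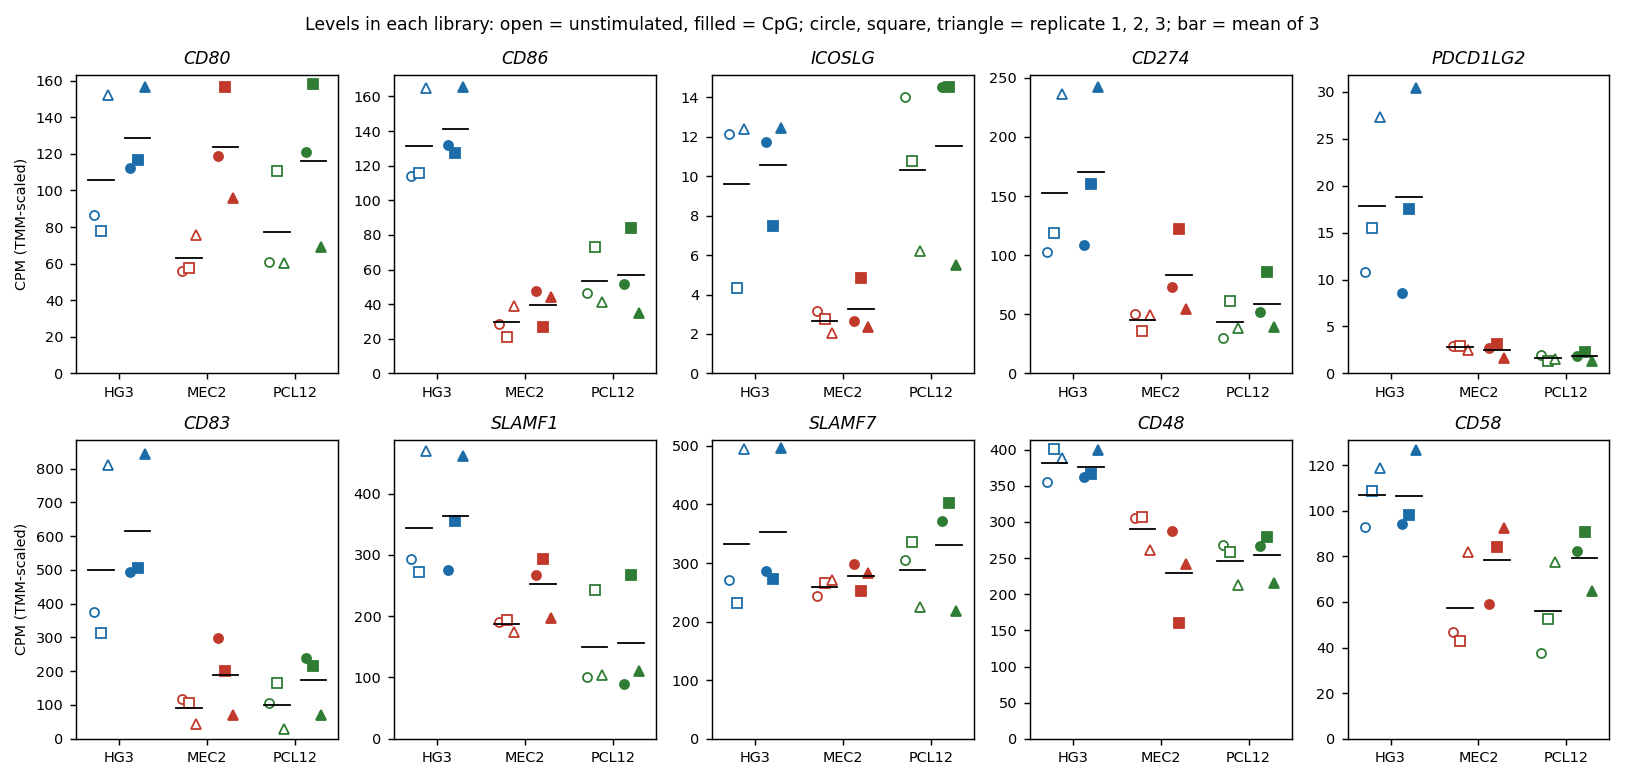
Level of each member (CPM, TMM-scaled, linear axes from 0) in all 18 libraries by cell line; open symbols are unstimulated and filled symbols CpG-stimulated cells, circle, square and triangle are replicates 1, 2 and 3, and bars are means of 3 libraries. For PDCD1LG2 every HG3 library (8.55 to 30.4 CPM) sits above every library of MEC2 and PCL12 (1.32 to 3.13 CPM), while SLAMF7 overlaps in all lines.

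Among the ligands of CD28 and CTLA4, CD86 separated the lines and CD80 did so less. CD86 stood at 114, 116 and 165 CPM in unstimulated HG3 replicates 1 to 3. In MEC2 it was at 28.4, 21.3 and 39.0 CPM, and in PCL12 at 46.4, 73.1 and 41.0 CPM. The HG3 libraries lay above all others, with means of 132 ± 29.0 CPM in HG3, 29.6 ± 8.92 in MEC2 and 53.5 ± 17.2 in PCL12 (SD, n = 3). The Log2FC of CD86 was -2.15 (SE 0.32) for MEC2 against HG3 (edgeR, adjusted p = 3.31e-05) and -1.30 (SE 0.31) for PCL12 against HG3 (adjusted p = 0.00648). The second rested in part on PCL12 replicate 3, without which the adjusted p was 0.0524 and the Log2FC -1.12; from PCL12 replicate 1 alone the Log2FC was -1.49 and the adjusted p 0.0616. MEC2 libraries also lay below those of PCL12 (Log2FC -0.85, SE 0.31), which did not pass (edgeR, adjusted p = 0.224), and against PCL12 replicate 1 alone the Log2FC was -0.67 (adjusted p = 0.645).

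CD80 stood at 86.6, 77.8 and 152 CPM in unstimulated HG3, at 56.1, 57.9 and 75.6 CPM in MEC2 and at 61.1, 111 and 60.5 CPM in PCL12. The MEC2 libraries lay below the lowest HG3 library, replicate 3 only narrowly, and PCL12 overlapped both lines. The Log2FC of -0.74 (SE 0.31) for MEC2 against HG3 did not pass (edgeR, adjusted p = 0.156), nor did the -0.45 for PCL12 against HG3 (adjusted p = 0.412), with a 95% interval of -1.09 to 0.19. Without HG3 replicate 3 these were -0.38 and -0.087, and PCL12 against HG3 was -0.29 without PCL12 replicate 1, -0.27 without replicate 3 and -0.79 without replicate 2.

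The ligand of ICOS followed another order. ICOSLG stood at 12.1, 4.33 and 12.4 CPM in HG3, at 3.15, 2.78 and 2.05 CPM in MEC2, and at 14.0, 10.8 and 6.22 CPM in PCL12, all unstimulated. MEC2 lay below every library of both other lines, while HG3 and PCL12 overlapped throughout. Its Log2FC was -1.86 (SE 0.47) for MEC2 against HG3 (edgeR, adjusted p = 0.00892) and -1.96 (SE 0.47) for MEC2 against PCL12 (adjusted p = 0.0215). ICOSLG was the 1 member of 10 that passed between MEC2 and PCL12 (2.05% of all tested genes passed, 1.53% as lower and 0.524% as higher in MEC2). That call was lost when any of MEC2 replicates 1, 2 and 3 or PCL12 replicates 1 and 2 was left out (Log2FC -2.09 to -1.67, adjusted p from 0.0580 to 0.144), and from PCL12 replicate 1 alone, with the spread of the other groups, the Log2FC was -2.43 (adjusted p = 0.0224). Against HG3 it was lost without MEC2 replicate 3 (Log2FC -1.70, adjusted p = 0.0514). PCL12 against HG3 gave 0.10 (SE 0.45, 95% interval -0.82 to 1.02), and turned to -0.22 without HG3 replicate 2 and to -0.17 without PCL12 replicate 1. The near-identical copy bears on each of these ICOSLG values, and its part was not tested.

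Both ligands of PD-1 were higher in HG3. CD274 stood at 102, 119 and 236 CPM in HG3, at 50.4, 35.8 and 49.8 CPM in MEC2, and at 29.6, 61.6 and 38.4 CPM in PCL12. PDCD1LG2 stood at 10.8, 15.5 and 27.3 CPM in HG3, at 2.89, 2.90 and 2.51 CPM in MEC2, and at 1.99, 1.32 and 1.58 CPM in PCL12. No HG3 library overlapped with a library of another line for either gene. The Log2FC of CD274 was -1.75 (SE 0.38) for MEC2 against HG3 (edgeR, adjusted p = 0.00326) and -1.82 (SE 0.38) for PCL12 against HG3 (adjusted p = 0.00235). For PDCD1LG2 the values were -2.69 (SE 0.46, adjusted p = 0.000169) and -3.45 (SE 0.47, adjusted p = 1.03e-05), the largest differences of the 10 members in edgeR's fit. Both genes passed with every library left out in turn and under every other setting with replicates. From PCL12 replicate 1 alone, with the spread of the other groups, the Log2FC was -2.35 for CD274 (adjusted p = 0.0133) and -3.15 for PDCD1LG2 (adjusted p = 0.0151). Between MEC2 and PCL12, CD274 overlapped (Log2FC 0.07, SE 0.37). The Log2FC of CD274 was -0.14 without PCL12 replicate 1, 0.42 without PCL12 replicate 2 and 0.59 against PCL12 replicate 1 alone. PDCD1LG2 was higher in each MEC2 library than in any PCL12 library without passing (Log2FC 0.76, SE 0.44, edgeR, adjusted p = 0.529). Against PCL12 replicate 1 alone its Log2FC was 0.45.

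Of 8 tested neighbors of the PD-1 ligands on chromosome band 9p24.1, 1 passed between unstimulated lines (9.78% of all tested genes did for MEC2 and 9.44% for PCL12 against HG3). RLN2, a relaxin gene found in 1 of 3 HG3 libraries with a mean of 0.0879 CPM, was higher in MEC2 (1.22 CPM, edgeR, adjusted p = 0.0456) and in PCL12 (1.38 CPM, adjusted p = 0.0368). JAK2, which transmits interferon signals, was at 15.0, 6.96 and 17.8 CPM in HG3 and at 18.5 to 22.5 CPM in MEC2, and PLGRKT was at 11.8 to 16.4 CPM in HG3 and at 13.4 to 18.7 CPM in MEC2. JAK2 was lower in each HG3 library than in any MEC2 library, and PLGRKT overlapped.

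CD83 had the widest range of the members, 30.2 CPM in unstimulated PCL12 replicate 3 to 845 CPM in CpG-stimulated HG3 replicate 3. Unstimulated HG3 held 376, 313 and 810.3 CPM, MEC2 118, 107 and 44.2 CPM, and PCL12 106, 166 and 30.2 CPM. HG3 did not overlap with the other lines, which overlapped with each other. The Log2FC of CD83 was -2.48 (SE 0.71) for MEC2 against HG3 (edgeR, adjusted p = 0.0420), a call that was lost with any 1 of HG3 replicates 1, 2 and 3 or MEC2 replicates 1, 2 and 3 left out (adjusted p from 0.0545 to 0.155, Log2FC from -2.70 to -1.94). It passed in 6 of 8 other settings. The highest adjusted p there, 0.0702 in edgeR, was that without the libraries rich in mitochondrial counts. PCL12 against HG3 gave -2.31 (SE 0.71), just short of the threshold (adjusted p = 0.0584), and passed with DESeq2 (adjusted p = 0.000492) and limma-voom (adjusted p = 0.0176), in a range of 1.23e-13 to 0.183 over the settings other than single libraries left out, where the highest was that of PCL12 replicate 1 alone (Log2FC -2.22).

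Of the adhesion ligands, CD58, which binds CD2, was higher in HG3. It stood at 93.0, 109 and 119 CPM in unstimulated HG3, at 46.6, 42.8 and 82.1 CPM in MEC2, and at 37.6, 52.5 and 77.4 CPM in PCL12. Every HG3 library lay above every library of the other lines, whose values overlapped with each other. Its Log2FC was -0.90 (SE 0.28) for MEC2 against HG3 (edgeR, adjusted p = 0.0410) and -0.93 (SE 0.28) for PCL12 against HG3 (adjusted p = 0.0339). Both calls were lost without HG3 replicate 2 (adjusted p = 0.0693 and 0.0579) and without HG3 replicate 3 (adjusted p = 0.108 and 0.0978), the first also without MEC2 replicate 1 (0.183) or 2 (0.203), and the second also without PCL12 replicate 1 (0.175) or 2 (0.104). From PCL12 replicate 1 alone the second was -1.49 (adjusted p = 0.0597). The Log2FC stayed within -1.25 to -0.72 in the fits with 1 library left out. For MEC2 against HG3, CD58 passed in 6 of 8 other settings. The highest adjusted p there, 0.0767 in edgeR, was that with library totals.

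SLAMF1, a self-binding receptor of activated lymphocytes, stood at 294, 271 and 469 CPM in HG3, at 191, 194 and 175 CPM in MEC2, and at 101, 243 and 105 CPM in PCL12, all unstimulated. HG3 was above both other lines in every library. PCL12 against HG3 passed (Log2FC -1.21, SE 0.37, edgeR, adjusted p = 0.0383), and MEC2 against HG3 did not (Log2FC -0.89, SE 0.37, adjusted p = 0.150). PCL12 replicate 2, at 243 CPM, was above all MEC2 libraries, and replicates 1 and 3 below them. The PCL12 call was lost without HG3 replicate 2 (adjusted p = 0.0629) or 3 (0.174) or PCL12 replicate 1 (0.170) or 3 (0.177), and from PCL12 replicate 1 alone, with the spread of the other groups, the Log2FC was -1.76 (adjusted p = 0.0201).

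CD48, the ligand of CD244, had the narrowest spread between replicates (SD of log2 CPM within groups 0.22, against 0.36 to 0.92 for the other members). It stood at 355, 402 and 389 CPM in HG3, at 305, 307 and 261 CPM in MEC2, and at 268, 259 and 213 CPM in PCL12. Each HG3 library was above those of the other lines, by a Log2FC of -0.39 (SE 0.23) for MEC2 and -0.63 (SE 0.23) for PCL12 against HG3, neither of which passed (edgeR, adjusted p = 0.315 and 0.0903). For PCL12, CD48 passed with DESeq2 (adjusted p = 0.0261), limma-voom (0.0237), filterByExpr (0.0488) and without the libraries rich in mitochondrial counts (0.0310), and not from PCL12 replicate 1 alone (Log2FC -0.49, adjusted p = 0.677). SLAMF7, a receptor of plasma cells and activated lymphocytes, ranged from 232 to 494 CPM in HG3, from 244 to 271 CPM in MEC2 and from 226 to 336 CPM in PCL12. The lines overlapped, and the Log2FC of SLAMF7 was -0.36 (95% interval -0.96 to 0.24) for MEC2 and -0.20 (-0.80 to 0.40) for PCL12 against HG3, while without HG3 replicate 3 it was 0.045 and 0.20. In all, 9 members did not overlap between unstimulated HG3 and MEC2 and were lower in MEC2 (10.6% of all tested genes did so), and 7 were lower in PCL12 than in HG3 without overlap (9.36%). Between MEC2 and PCL12, CD86 and ICOSLG were lower in MEC2 without overlap (9.75%) and PDCD1LG2 higher (7.59%).

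**Figure D2:**
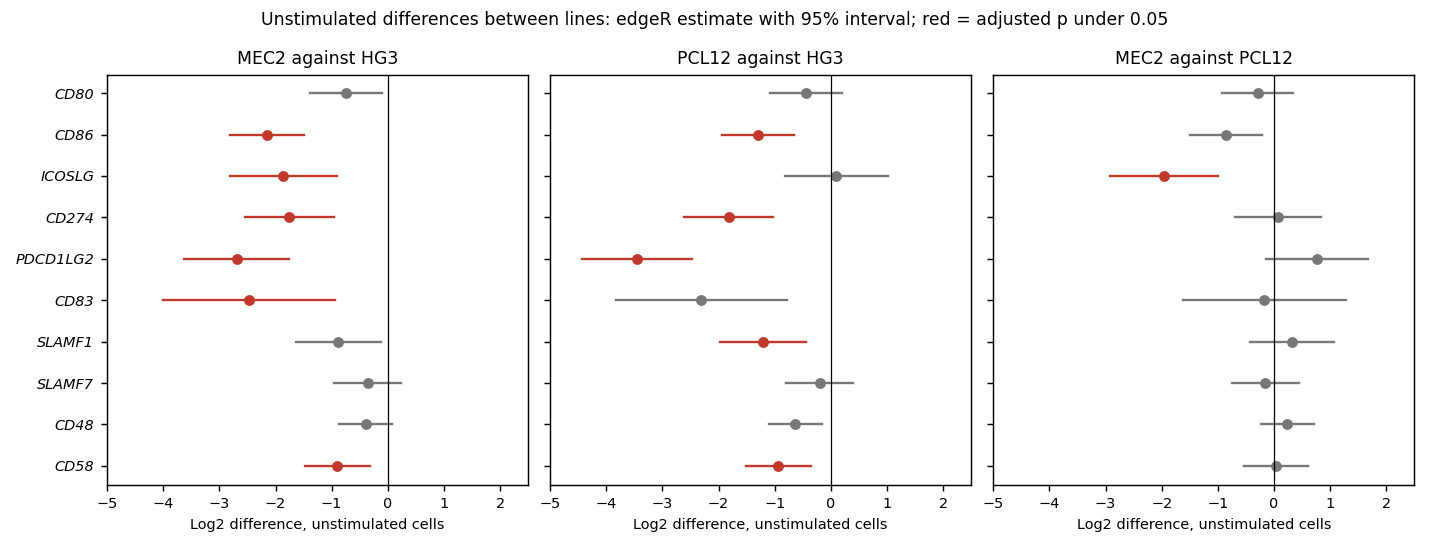
Difference between unstimulated lines for each member (x axis, Log2FC from edgeR, 3 against 3 libraries; bars, 95% intervals; red, adjusted p under 0.05). Against HG3 the estimates for MEC2 are all below 0, those for PCL12 are below 0 except for ICOSLG (0.10), and between MEC2 and PCL12 ICOSLG (-1.96) is the one in red.

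After 4 h of CpG no member passed in any line without the pairing, while with the replicate block edgeR called CD80, CD83 and CD274 in MEC2 and CD83 in PCL12, as given below. In edgeR's fit without the block 0 of the 10 members passed an adjusted p under 0.05 in HG3 (0.00314% of all tested genes passed), 0 in MEC2 (0.00314%) and 0 in PCL12 (0%), and none met the study's definition of a DEG (nominal P under 0.01 and an absolute Log2FC of at least 1), which 0.496%, 0.251% and 0.116% of all tested genes met in HG3, MEC2 and PCL12. At an unadjusted p under 0.05, 2 members were higher in MEC2 (2.46% of all tested genes were past it in either direction, 1.51% upward), 0 in HG3 (3.73%) and 0 in PCL12 (2.09%). DESeq2 and limma-voom without the pairing likewise called 0 members in each line. The median Log2FC of the members was 0.09 in HG3, 0.43 in MEC2 and 0.18 in PCL12, beside 0, 0 and 0.02 over all tested genes.

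CD80 stood at 119, 156 and 96.0 CPM in CpG-stimulated MEC2, against 56.1, 57.9 and 75.6 CPM in the unstimulated partners, so that the groups did not overlap. Its Log2FC was 0.97 (SE 0.31, edgeR adjusted p = 1), and the fold of the 3 pairs was 2.12, 2.70 and 1.27. In PCL12 the pairs gave 1.98, 1.43 and 1.14 (Log2FC 0.59, SE 0.31), and in HG3 1.29, 1.50 and 1.03 (Log2FC 0.28, SE 0.31). With 1 library left out the Log2FC of CD80 ranged from 0.30 (without CpG-stimulated replicate 2) to 0.94 (without unstimulated replicate 2) in PCL12, and from 0.12 (without CpG-stimulated replicate 3) to 0.64 (without unstimulated replicate 3) in HG3, where it was 0.13 without unstimulated replicate 2 and 0.17 without unstimulated replicate 1. TIMMDC1, which overlaps CD80 on the other strand, was at 31.6, 36.4 and 38.5 CPM in unstimulated and 25.6, 20.7 and 38.1 CPM in stimulated MEC2 (Log2FC -0.34, SE 0.30).

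CD274 went from 50.4, 35.8 and 49.8 CPM to 73.1, 122 and 54.9 CPM in MEC2, again without overlap. The pairs gave folds of 1.45, 3.40 and 1.10, and the second holds the library rich in mitochondrial counts. Its Log2FC of 0.88 (SE 0.37, edgeR adjusted p = 1) was 0.50 without that library. In PCL12 the folds of CD274 were 1.75, 1.39 and 1.03, and in HG3 1.06, 1.35 and 1.02, where the Log2FC of 0.16 turned to -0.18 without CpG-stimulated replicate 3 and to -0.05 without unstimulated replicate 1.

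CD83 showed the largest estimates. In MEC2 it went from 118, 107 and 44.2 CPM to 299, 199.7 and 69.5 CPM, folds of 2.53, 1.87 and 1.57. In PCL12 it went from 106, 166 and 30.2 CPM to 238, 215 and 69.6 CPM, folds of 2.24, 1.29 and 2.30. The groups overlapped in both lines because replicate 3 was low with and without CpG. The Log2FC was 1.08 (SE 0.68, 95% interval -0.39 to 2.55) in MEC2 and 0.79 (SE 0.68, -0.67 to 2.25) in PCL12, and 0.30 (SE 0.67, -1.15 to 1.75) in HG3, where the folds were 1.31, 1.61 and 1.04; without CpG-stimulated HG3 replicate 3 the last was -0.0016. With 1 library left out the Log2FC of CD83 ranged from 0.59 (without CpG-stimulated replicate 1) to 1.48 (without CpG-stimulated replicate 3) in MEC2, and from 0.35 (without unstimulated replicate 3) to 1.36 (without unstimulated replicate 2) in PCL12, where it was 0.49 without CpG-stimulated replicate 1.

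The design paired each stimulated with an unstimulated sample, and with this replicate block in edgeR's fit 3 members passed in MEC2 (0.333% of all tested genes passed, 0.295% upward): CD80 (Log2FC 0.95, adjusted p = 0.00316), CD83 (0.97, adjusted p = 0.00283) and CD274 (0.81, adjusted p = 0.0416). In PCL12 CD83 alone passed (Log2FC 0.91, adjusted p = 0.0325; 0.0471% of all tested genes passed, 0.0408% upward), and in HG3 0 members did (0.135%). With the libraries rich in mitochondrial counts left out, the block gave CD80 (0.71, adjusted p = 0.000957) and CD83 (1.00, adjusted p = 2.49e-10) in MEC2, while CD274 was no longer past the threshold (0.34, adjusted p = 0.848). Over all settings but single libraries left out the adjusted p ranged up to 1 for the 3 genes in MEC2. From the PCL12 pair of replicate 1 alone, CD83 stood at 1.17 with an adjusted p of 0.764. With limma-voom the same block called 0 members in each line (CD80 adjusted p = 0.223, CD83 0.146 and CD274 0.668 in MEC2), where 9 of all 31872 tested genes passed in MEC2, 3 in PCL12 and 0 in HG3. The block left 6 residual degrees of freedom, and edgeR then took the spread of all 10 members from the trend over all genes rather than from their own pairs.

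Over the pairs, 5 members were higher with CpG in all 3 pairs of HG3 (8.21% of all tested genes were), 6 in MEC2 (7.82%) and 3 in PCL12 (17.6%). CD80, CD274 and CD83 were so in all 9 pairs of the 3 lines, as were 0.301% of all tested genes. CD86 was higher in all pairs of HG3 (folds of 1.16, 1.10 and 1.003) and MEC2 (1.68, 1.26 and 1.13), SLAMF7 in HG3 (1.06, 1.18 and 1.005), and SLAMF1 (1.39, 1.52 and 1.12) and CD58 (1.27, 1.96 and 1.13) in MEC2. SLAMF1 did not overlap between stimulated and unstimulated MEC2, which made 3 such members with CD80 and CD274 (2.52% of all tested genes, upward). Their fitted Log2FC in MEC2 were 0.42 for CD86, 0.44 for SLAMF1, 0.46 for CD58 and 0.10 for SLAMF7, none past an adjusted p of 0.05 in edgeR. With 1 library left out they ranged from 0.23 to 0.67 for CD86 (without unstimulated replicates 2 and 3 in turn), from 0.29 to 0.81 for CD58 (likewise), from 0.32 to 0.59 for SLAMF1 and from 0.028 to 0.17 for SLAMF7. CD48 was the 1 member lower in all 3 pairs of a line, in MEC2 (0.941, 0.522 and 0.929; 8.72% of all tested genes were lower there), with a Log2FC of -0.34 that was -0.13 without the library rich in mitochondrial counts. CD58 in PCL12 moved in both directions, with folds of 2.19, 1.73 and 0.836 (Log2FC 0.51, SE 0.28). With 1 library left out its Log2FC there ranged from 0.30 (without unstimulated replicate 1) to 0.80 (without unstimulated replicate 3). The pair ratios of PDCD1LG2 and ICOSLG, the members with the fewest counts, ran from 0.670 to 1.73 over the lines.

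**Figure D3:**
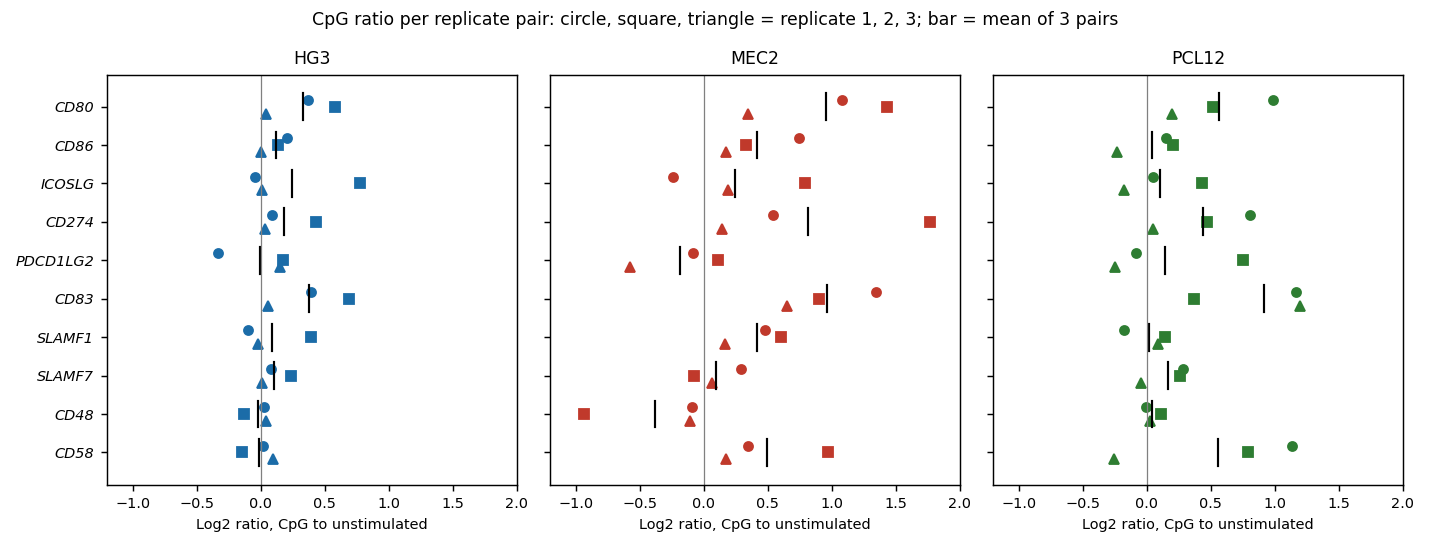
Log2 ratio of the CpG-stimulated to the unstimulated library of the same replicate number for each member (x axis, prior count 2; circle, square and triangle, replicates 1, 2 and 3; bar, mean of 3 pairs; line at 0, no change). CD80, CD274 and CD83 lie right of 0 in all 9 pairs, and CD48 lies left of 0 in the 3 MEC2 pairs.

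No member passed the adjusted test of a different CpG effect between lines: 0 of 10 passed for MEC2 against HG3 (0% of all tested genes passed), PCL12 against HG3 (0.00314%) and MEC2 against PCL12 (0%) in edgeR's fit without the block, and 0 at an unadjusted p under 0.05 (4.1%, 4.16% and 3.23% of all tested genes). The estimates of MEC2 over HG3 were 0.69 (95% interval -0.22 to 1.59) for CD80, 0.72 (-0.37 to 1.81) for CD274 and 0.78 (-1.27 to 2.83) for CD83, intervals that hold 0 and also a difference of more than 1 on the log2 scale. With the replicate block they were narrower and left out 0, at 0.62 (0.05 to 1.19) for CD80, 0.62 (0.05 to 1.199) for CD274 and 0.59 (0.01 to 1.16) for CD83, and the adjusted p in edgeR was 1 for all 3. The width of these intervals came from the trend over all genes, not from the members' own pairs. The SD of the log2 pair ratios of CD274 was 0.85 in MEC2 and 0.22 in HG3. Without the block, leaving out unstimulated HG3 replicate 3 lowered the estimates to 0.33 for CD80, 0.26 for CD274 and 0.25 for CD83. Leaving out CpG-stimulated MEC2 replicate 2 gave 0.33 for CD274, and for CD83 the fits without MEC2 replicate 1 with CpG (0.29), replicate 3 without CpG (0.46) and replicate 3 with CpG (1.18) also moved by over 1.5 times. DESeq2 and limma-voom also called 0 members in each of these 3 comparisons, as did edgeR with the replicate block, where 0.141%, 0.069% and 0.0126% of all tested genes passed.

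Single replicates were highest or lowest for several members in both treatments. In HG3, replicate 3 had the highest level of 9 of the 10 members with and without CpG, all but CD48, where 17.5% of all tested genes had their highest value there. In PCL12, replicate 2 was highest for 5 members in both treatments (10.1% of all tested genes) and replicate 3 lowest for 6 (10.8%). In MEC2, replicate 3 was lowest in both treatments for 4 members, SLAMF1, CD83, PDCD1LG2 and ICOSLG (16.4% of all tested genes), and no replicate was highest for more than 2 members (8.21% of all tested genes for replicate 2). For SLAMF7, 85.1% of the variance of log2 CPM lay between replicates, against 11.5% between lines and 3.39% between treatments within lines. PDCD1LG2 was at the other end with 91.0% between lines, and CD86 had 83.5% there. CD80 had the largest share between treatments, 41.9%, and CD58 followed with 18.8%.

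Some receptors of these ligands were themselves transcribed in these B cell lines and differed between them. Of 8 receptor and adaptor genes, 3 were higher and 1 lower in unstimulated MEC2 than in HG3, where 4.81% and 4.97% of all tested genes were. CD28, the receptor of CD80 and CD86, stood at 56.1, 48.9 and 58.4 CPM in MEC2 and at 0.659, 0 and 0.421 CPM in HG3 (Log2FC 7.07, SE 1.63, edgeR, adjusted p = 0.0144). SH2D1A, the adaptor of SLAM receptors, stood at 42.7, 35.2 and 16.0 CPM in MEC2 and at most 0.158 CPM in HG3 (adjusted p = 0.0223), and CD244, the receptor of CD48, at 9.31, 10.1 and 4.05 CPM against 1.16, 0.774 and 3.71 CPM (Log2FC 2.04, SE 0.64, adjusted p = 0.0410). The MEC2 libraries were above every HG3 library for all 3.

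ICOS went the other way: the receptor of ICOSLG stood at 8.42, 12.4 and 35.8 CPM in HG3 and had 0 counts in the 3 MEC2 libraries, at least 193-fold lower when 3 counts per library are taken as the floor (adjusted p = 6.20e-05). PCL12 had 2 ICOS counts in its 3 unstimulated libraries and ICOS was the 1 of 8 receptor genes that passed there against HG3 (edgeR, adjusted p = 8.84e-05). CD28 stood at 0.160 CPM in PCL12 replicate 1 and at 17.2 and 24.5 CPM in replicates 2 and 3, the libraries with transcripts high in MEC2 (edgeR, adjusted p = 0.0557 for PCL12 against HG3). SH2D1A stood at 0, 3.74 and 3.02 CPM in PCL12 replicates 1, 2 and 3. PDCD1, the receptor of CD274 and PDCD1LG2, stood at 8.15 to 30.4 CPM in HG3, 8.77 to 23.8 CPM in MEC2 and 5.06 to 12.6 CPM in PCL12, and did not pass in any comparison. CTLA4 had at most 2 counts in each unstimulated library and CD2 at most 22.

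Other ligands of T cell costimulation or inhibition differed in both directions. Of 15 tested, 6 were lower in MEC2 than in HG3 and 0 higher (4.97% and 4.81% of all tested genes), and 4 were lower and 2 higher in PCL12 than in HG3 (4.57% and 4.87%). TNFSF4, the OX40 ligand, stood at 127, 146 and 358 CPM in HG3, at 2.18, 4.61 and 6.89 CPM in MEC2 and at 31.3, 66.3 and 46.7 CPM in PCL12 (Log2FC -5.52 and -2.13 against HG3, adjusted p = 2.13e-06 and 0.00642), and the 3 lines did not overlap. CD70, the ligand of CD27, stood at 174, 465 and 272 CPM in HG3, at 112 to 126 CPM in MEC2 and at 75.4 to 136 CPM in PCL12 (Log2FC -1.35 and -1.43, adjusted p = 0.00518 and 0.00319). The 4-1BB ligand TNFSF9 (Log2FC -1.83 and -1.69) and CD200, which restrains myeloid cells (-2.48 and -1.49), were lower in both lines as well, with adjusted p from 6.85e-06 to 0.00215. CD276 (B7-H3) fell from 10.3 CPM in HG3 to 0.335 CPM in MEC2 (Log2FC -4.91, adjusted p = 9.06e-07), and PVR from 3.63 to 0.586 CPM (adjusted p = 0.0313). In PCL12 VSIR (VISTA; 36.8 against 5.13 CPM, Log2FC 2.83, adjusted p = 0.00595) and CD47, the signal against phagocytosis (184 against 73.2 CPM, Log2FC 1.33, adjusted p = 0.000632), were higher than in HG3. CD276 (Log2FC -3.78) and TNFSF4 (-3.40) were the 2 of 15 that passed between MEC2 and PCL12, both lower in MEC2 (2.05% of all tested genes passed), and PCL12 replicate 1, at 7.15 CPM of CD276 and 31.3 CPM of TNFSF4, was above each MEC2 library.

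Among 5 tested SLAM family genes that are no members of the set, 2 were lower in PCL12 than in HG3, SLAMF6 (28.9 against 69.3 CPM, Log2FC -1.26, adjusted p = 0.00413) and LY9 (5.38 against 68.6 CPM, Log2FC -3.68, adjusted p = 0.0375), and CD244 was the 1 that was higher in MEC2 (4.57% of all tested genes were lower in PCL12 and 4.81% higher in MEC2). For ICOS, RLN2, the 6 other ligands and these 2 SLAM genes, PCL12 replicate 1 lay on the same side of all 3 HG3 libraries as the PCL12 mean. With CpG, 0 genes of these 4 lists passed in any line in the fit without the pairing.

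**Figure D4:**
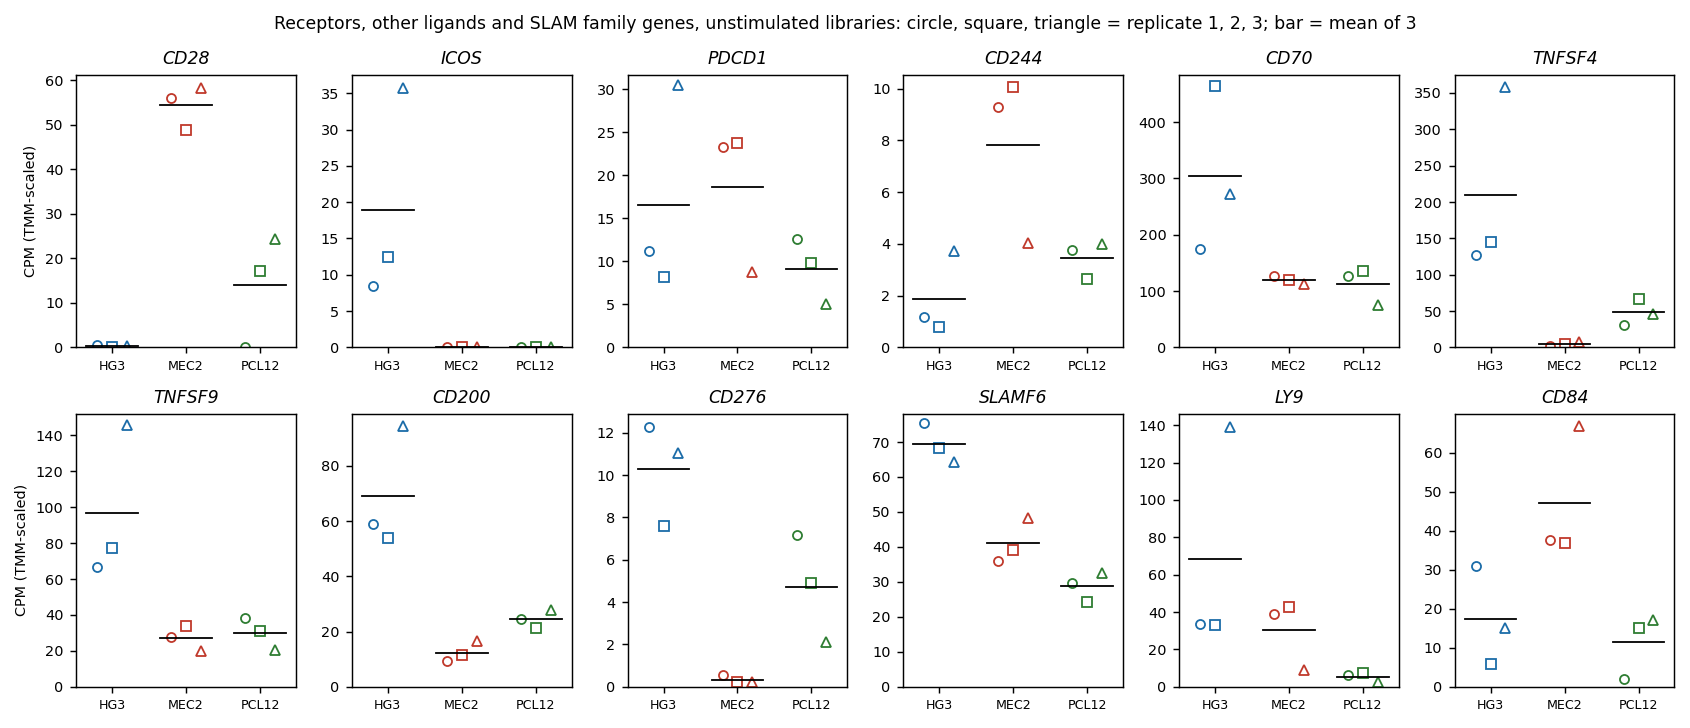
Levels (CPM, TMM-scaled, linear axes from 0) of receptors, other ligands and SLAM family genes in the 9 unstimulated libraries (circle, square and triangle, replicates 1, 2 and 3; bar, mean of 3). CD28 is at 48.9 to 58.4 CPM in MEC2 and in PCL12 is near 0 in replicate 1 only, ICOS is found in HG3 (8.42 to 35.8 CPM), and TNFSF4 is highest in HG3 (127 to 358 CPM).

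Levels of 13980 other genes, each averaging 1 CPM or more, were set beside each member over the 18 libraries, with the root mean square difference of log2 CPM after each gene's own mean was removed; this is a description, and all points share library and depth. CD86 was most like CCR7 (0.27, where the median over all genes compared was 1.06), the chemokine receptor that directs lymphocytes to lymph nodes. CD274 was most like TNFAIP3 (0.31, median 1.03), an inhibitor of NF-κB signaling, and CD83 most like PIM1 (0.54, median 1.45), a survival kinase. CD48 was closest to its nearest gene, RPL3 (0.10, median 0.63), a ribosomal protein gene. Of the others, the nearest genes were FMNL3 for CD80 (0.21), ANO10 for PDCD1LG2 (0.42), TRIM22 for SLAMF1 (0.27), SLC38A2 for SLAMF7 (0.19) and TMEM106B for CD58 (0.25). Between members the smallest distances were 0.37 for CD80 and SLAMF7, 0.38 for SLAMF7 and CD48, and 0.42 for CD274 and SLAMF1. The neighbors CD274 and PDCD1LG2 were 0.83 apart and the pair CD80 and CD86 0.77 apart.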

How the data were processed

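The authors trimmed the reads, aligned them to hg38 and deposited 1 table of raw counts per gene symbol for the 18 libraries; the labels name Trimmomatic, STAR and featureCounts, and the annotation release, strand setting and handling of duplicates are not given in the sources used here. The labels describe a stranded QuantSeq kit. The deposited counts were fitted in edgeR 4.0.16 (R 4.3.3) with TMM factors, 1 mean for each of 6 groups, robust quasi-likelihood dispersions and Benjamini-Hochberg adjustment over the 31872 genes with at least 10 summed counts, with 12 residual degrees of freedom. CPM values are means with SD of 3 libraries, and log2 values used a prior count of 2. All 10 members were tested in every comparison. For CpG effects that differ between lines, values are given for CD80, CD274 and CD83 in MEC2 against HG3 only. From the gene lists, those with an adjusted p under 0.05 are named, beside some that did not pass. The members and lists were chosen with earlier results of these data known. The methods were tested on simulated data. Depth was 20382943 to 67308932 counts per library, and since reads are not molecules, floors cover counting error only. No 2 replicates agreed within sampling noise. Some results are not reported here.

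The series' description gives each replicate 1 stimulated and 1 unstimulated sample, so numbers pair samples within a line; the correlations of their deviations from the group means were 0.212 to 0.480 (HG3), -0.013 to 0.611 (MEC2) and 0.494 to 0.607 (PCL12). Alternatives were DESeq2 1.42.0, limma-voom (limma 3.58.1), RLE factors, library totals, filterByExpr, no filter, the replicate block, fits of 1 line, and libraries left out; the block together with libraries left out was added after seeing the data. Figures used matplotlib 3.10.9.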

Additional observations from a re-analysis of the deposited data

How the results depend on the processing

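Of 90 Log2FC of members over the 9 comparisons, 12 passed in the main fit. None of the 12 changed sign under any setting; 7 lost their call with some library left out and 6 under another setting, while of the 78 others 40 changed sign with some library left out and 22 under another setting, and 7 gained a call under another setting. The 7 were CD83 and CD48 for unstimulated PCL12 and SLAMF1 for MEC2 against HG3, CD80, CD274 and CD83 with CpG in MEC2, and CD83 with CpG in PCL12. Library totals in place of TMM factors moved the scale up by 0.11 for unstimulated MEC2 and by 0.16 for PCL12 against HG3.

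Members past the threshold between unstimulated PCL12 and HG3 numbered 5, and 7 with DESeq2, limma-voom or filterByExpr and 6 without a filter, but 3 with library totals (CD86, CD274 and PDCD1LG2) or from PCL12 replicate 1 alone, assumed to vary like the other groups (CD274, PDCD1LG2 and SLAMF1), and 3 to 5 with 1 library left out: 3 without HG3 replicate 2 or 3 or PCL12 replicate 1 or 3. Between unstimulated MEC2 and PCL12 the 1 member was lost (0) with limma-voom, and 0 to 1 remained with 1 library left out. With the replicate block, CpG changed 3 members in MEC2 and 1 in PCL12 in place of 0, and 2 in MEC2 with the libraries rich in mitochondrial counts also left out; the block changed no other call. The study's DEG definition was met by 0 members in MEC2 in the main fit, by 1 (CD83) without a filter, with the block in limma-voom or with the block and those libraries left out, and by 0 to 1 (CD80) with 1 library left out, without CpG-stimulated or unstimulated replicate 3. In PCL12 it was met by 2 (CD83 and CD58) with the block and replicate 1 alone. ICOSLG between unstimulated PCL12 and HG3 turned from 0.10 to -0.25 without the libraries rich in mitochondrial counts and ranged from -0.22 to 0.39 with 1 library left out. With 1 library left out, SLAMF7 ranged from -0.54 to 0.045 for unstimulated MEC2 and from -0.38 to 0.20 for PCL12 against HG3, and with CpG in HG3 CD274 ranged from -0.18 to 0.62 and CD83 from -0.0016 to 0.83. The cause of these changes was not tested.

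Between lines the numbers are no pairing: deviations of unstimulated libraries with the same number correlated from -0.165 to 0.387, and a block over the shared numbers left 6, 5 and 1 members past the threshold. With 3 libraries a group, the 95% interval of the CpG effect on CD83 in MEC2 was -0.39 to 2.55 without the pairing and 0.56 to 1.38 with the block. The interval with the block took its spread from the trend over all genes, not from the pairs of CD83.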
